A study of Arabidopsis thaliana with 12 samples.

Results

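The genes described here were induced by cytokinin in root explants of both genotypes of an Arabidopsis shoot regeneration experiment. A gene was a member when its group FPKM (fragments per kilobase of transcript, scaled to the mapped fragments of the library) was at least 2 times as high with cytokinin as without it in the groups labelled CPL4RNAi and in wild type. It also needed an FPKM of 2 or more in both cytokinin groups and a value above 0 in both groups without it. The type-A response regulators and the cytokinin oxidases, the best known cytokinin response genes, were left out, and 102 of 33557 annotated features remained. The members were thus chosen by these group FPKM and folds, which are given as a description with no test of the cytokinin effect.

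Total RNA of 12 samples in 4 groups of 3 was sequenced from explants of 18 days. Root segments of 10-day seedlings had been kept for 5 days on callus-inducing medium and then for 72 hours on shoot-inducing medium. The group CPL4RNAi(+) was given 0.05 mg/L of the cytokinin 2iP and CPL4RNAi(-) 0 mg/L, and the wild-type groups WT(+) and WT(-) were treated alike. Wild type was Col-0 gl1, and the titles name the other line CPL4RNAi where its genotype field has CPL4 KO. The labels give neither the promoter of the construct nor the number of lines, and call the replicates biological without naming separate cultures. CPL4 (AT5G58003), a phosphatase of the RNA polymerase II tail, had 32.2 FPKM in CPL4RNAi(+) and 36.3 in CPL4RNAi(-), against 13.9 in WT(+) and 14.5 in WT(-). The FPKM counted for the targeted gene was thus higher where its label has it reduced. Whether RNA of the construct was part of that FPKM was not tested, and the genotype is given below as labelled. Root genes were present in all groups (WOX5 had 41.2 FPKM in CPL4RNAi(+) and 55.2 in CPL4RNAi(-), against 135 in WT(+) and 155 in WT(-)). Of the root epidermis markers, WER had 4.66 FPKM in CPL4RNAi(+) and 4.30 in CPL4RNAi(-), against 3.58 in WT(+) and 6.03 in WT(-), while GL2 and COBL9 stayed under 1 FPKM. The 8 leaf photosynthesis genes together held 7.82 FPKM in CPL4RNAi(+) and 7.46 in CPL4RNAi(-), against 12.8 in WT(+) and 11.6 in WT(-). Most of that gap lay in PSBO1, with 4.22 FPKM in CPL4RNAi(+) and 4.79 in CPL4RNAi(-), against 9.86 in WT(+) and 8.65 in WT(-). The values used are 1 FPKM per group from the authors' deposited table, with no value per replicate, and the depth of the libraries is unknown from them. In whole explants, more cells of a type and more RNA per cell cannot be told apart.

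Cytokinin is perceived by membrane histidine kinases, and a phosphate passed through carrier proteins activates the type-B response regulators, transcription factors of the nucleus. These bind short DNA elements and switch on a primary set of genes, which includes the type-A response regulators that damp the signal. In root explants that have passed through an auxin-rich medium, cytokinin turns the callus towards shoot formation. After days on the hormone, primary targets and later changes are read together.

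Of 16477 genes at or above 2 FPKM with cytokinin and above 0 without it in both genotypes, 109 passed both folds (0.662%). Of these 109, 7 were the left-out genes ARR3, ARR6, ARR7, ARR15, CKX1, CKX5 and CKX7. The 102 members comprised 98 protein-coding genes, 1 microRNA precursor, 1 non-coding RNA, 1 transcribed pseudogene and 1 feature without an entry in the reference annotation. Their median level was 15.9 FPKM in CPL4RNAi(+) and 4.48 in CPL4RNAi(-), against 9.74 in WT(+) and 2.73 in WT(-). Levels ran from 2.03 to 428 FPKM in CPL4RNAi(+) and from 0.0661 to 200.3 in CPL4RNAi(-), against 2.03 to 191 in WT(+) and 0.131 to 55.7 in WT(-). The set therefore held genes that were almost silent without the hormone beside genes that were already strong. Under 1 FPKM without cytokinin were 15 members in the groups labelled CPL4RNAi and 22 in wild type.

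The median cytokinin fold was 3.57 in the groups labelled CPL4RNAi and 3.77 in wild type. Both folds reached 4 in 32 members and 8 in 10. The fold was larger in the groups labelled CPL4RNAi for 48 members and larger in wild type for 54, and for 64 members the folds lay within 1.5 times of each other. In 18 members they were more than 2 times apart, 7 with the larger fold in the groups labelled CPL4RNAi and 11 with the larger fold in wild type. By the authors' deposited table, 97 members were called higher with cytokinin at a q-value of 0.05 or less in the groups labelled CPL4RNAi, where 8.42% of all tested genes were, and 97 in wild type, where 6.58% were. The rule used these contrasts, so nothing is read from the counts. The 6 members not called in both genotypes were VSP2, LCR25, RTFL7, AT1G58010, AT2G26267 and AT2G17300. The smaller of the folds was 2.01 for ARGOS, 2.02 for AT2G17300 and 2.02 for AT3G61920, just inside the threshold, and 1.99 for QRT3, 1.98 for SIP1 and 1.97 for AT5G19220, just outside it. On the level threshold, the lower of the cytokinin groups stood at 2.03 FPKM for PAP7, 2.03 for AT5G47950 and 2.07 for AT2G17300, and at 1.93 for STH, 1.71 for AT5G05250 and 1.70 for SAUR9.

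**Figure D1:**
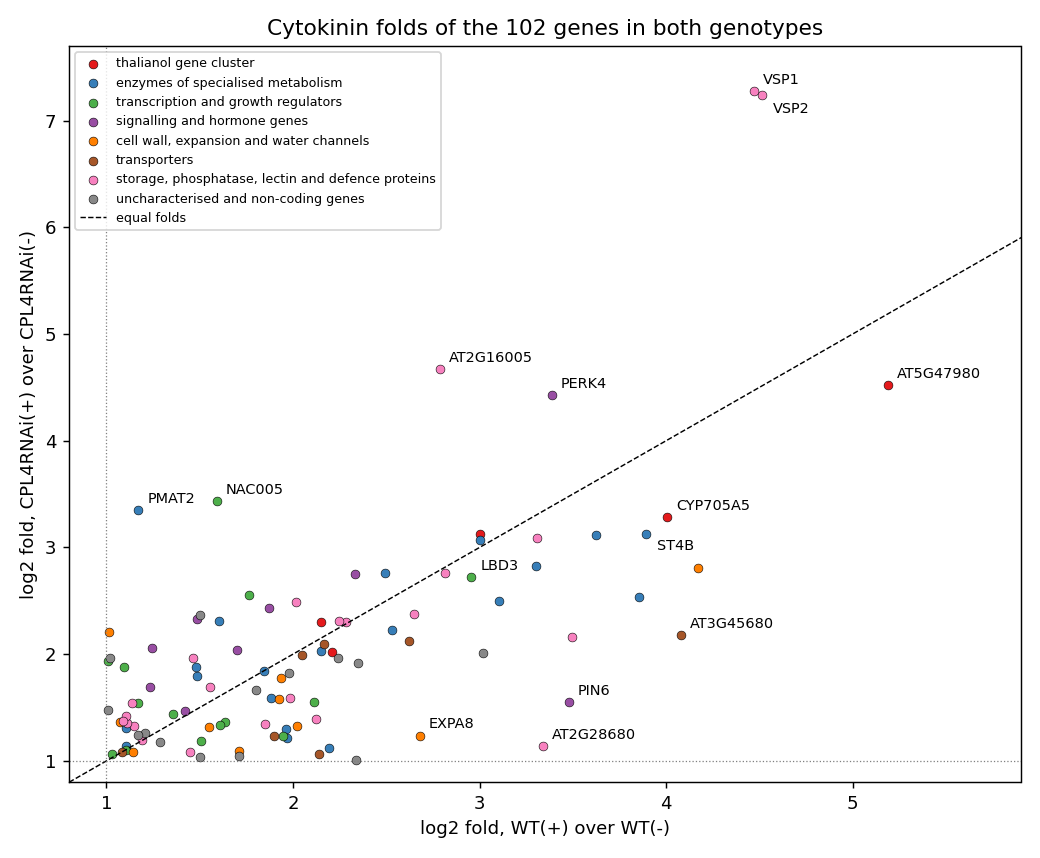
Cytokinin fold of each of the 102 genes on the log2 scale, in the groups labelled CPL4RNAi (vertical axis) against wild type (horizontal axis), coloured by the role of the gene. The dashed line marks equal folds and the dotted lines the 2-fold threshold of the rule. VSP1 and VSP2 lie far above the line and AT5G47980 at the right, while most genes lie near the lower left corner on both sides of the line.

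The promoters of the members were searched for elements of the cytokinin pathway and of other pathways, since the rule used no sequence. The window ran from 250 bases before to 50 after the annotated start in RefSeq (assembly TAIR10.1, both strands searched), and 101 members and 32808 genes in all had one. The G-box CACGTG, an element bound by bHLH and bZIP transcription factors, occurred in 17 member promoters (16.8%), against 6.89% of all promoters and 8.93% of those of genes at or above 2 FPKM in both cytokinin groups. The extended type-B response regulator element AAGATCTT occurred in 3 (2.97%, against 1.07% of all promoters), and AAGATTTT, a variant of it, in 8 (7.92%, against 6.46%). Its core AGATC, which every AAGATCTT contains, was found in 37 (36.6%, against 33.8%), but in the 250 bases before the start alone its share was 25.7% in members and 28.2% in all genes. The auxin response element TGTCTC occurred in 15 (14.9%, against 14.0%). Among these elements the G-box had the widest gap in percentage points, a measure that favours common elements. As a ratio of shares AAGATCTT, in only 3 members, stood above the G-box in the longer window. In that window the genes at or above 2 FPKM in both cytokinin groups had AAGATCTT in 0.944%, AAGATTTT in 6.72%, AGATC in 30.7% and TGTCTC in 13.2%. In the 250 bases before the start the G-box was in 15 member promoters (14.9%), against 5.82% of all promoters and 7.43% of those of these expressed genes. These are counts of letters, not of bound sites, and no test was made of them.

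The 250 bases before the start are shown for 4 members that hold these elements, among them the most abundant member in CPL4RNAi(+), AT3G27400. All are written 5′ to 3′ on the gene's strand, with matches to CACGTG, AAGATCTT or AAGATTTT (or its complement AAAATCTT) in capitals. AT2G16005, of the MD-2-related lipid recognition family, holds all 3 elements (chr2:6960217-6960466, minus strand). AT1G14120, an annotated oxygenase, holds a G-box (chr1:4835090-4835339, minus strand), as does AT3G27400, of the pectin lyase-like family (chr3:10139950-10140199, plus strand). AT4G11190, of the dirigent-like family, holds AAGATCTT (chr4:6826337-6826586, plus strand).
AT2G16005: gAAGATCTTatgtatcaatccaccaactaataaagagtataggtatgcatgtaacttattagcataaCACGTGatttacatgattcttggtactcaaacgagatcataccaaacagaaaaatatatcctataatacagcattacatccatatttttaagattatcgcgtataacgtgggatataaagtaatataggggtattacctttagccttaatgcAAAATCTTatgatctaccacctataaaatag
AT1G14120: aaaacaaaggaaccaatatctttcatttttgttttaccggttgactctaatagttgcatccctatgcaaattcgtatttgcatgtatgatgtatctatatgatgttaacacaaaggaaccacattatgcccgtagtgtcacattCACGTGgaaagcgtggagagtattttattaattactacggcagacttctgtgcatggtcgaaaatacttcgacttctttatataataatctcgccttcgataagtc
AT3G27400: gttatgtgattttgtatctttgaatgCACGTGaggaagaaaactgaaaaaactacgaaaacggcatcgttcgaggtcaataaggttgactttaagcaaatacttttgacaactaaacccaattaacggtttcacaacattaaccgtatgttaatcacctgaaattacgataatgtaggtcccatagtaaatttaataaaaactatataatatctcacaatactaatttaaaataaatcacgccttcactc
AT4G11190: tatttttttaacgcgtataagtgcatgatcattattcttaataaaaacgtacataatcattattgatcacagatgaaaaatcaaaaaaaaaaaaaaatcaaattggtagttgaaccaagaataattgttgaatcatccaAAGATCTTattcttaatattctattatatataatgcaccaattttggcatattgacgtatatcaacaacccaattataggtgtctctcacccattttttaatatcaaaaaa

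The AAGATCTT of AT2G16005 begins 249 bases before the start and its G-box 183 bases before it. The G-box begins 106 bases before the start in AT1G14120 and 224 in AT3G27400, and the AAGATCTT of AT4G11190 begins 111 bases before it. The elements thus lie at different distances from the start. AT2G16005 had 22.1 FPKM in CPL4RNAi(+) and 0.865 in CPL4RNAi(-), against 10.7 in WT(+) and 1.55 in WT(-), a fold of 25.5 in the groups labelled CPL4RNAi and 6.90 in wild type. AT3G27400 had 428 FPKM in CPL4RNAi(+) and 200.3 in CPL4RNAi(-), against 119 in WT(+) and 36.2 in WT(-), with folds of only 2.13 and 3.27 in the groups labelled CPL4RNAi and in wild type, and was abundant without the hormone too.

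The genes were sorted by annotated role into 8 groups after their values had been seen. The thalianol gene cluster, in which neighbouring genes of chromosome 5 encode successive enzymes of a root triterpene, supplied 5 members. THAS1 makes thalianol from a linear precursor, CYP708A2 and CYP705A5 are the cytochrome P450 enzymes that modify it, and AT5G47980 and AT5G47950 are annotated as acyltransferases. THAS1 had 56.6 FPKM in CPL4RNAi(+) and 11.5 in CPL4RNAi(-), against 32.9 in WT(+) and 7.40 in WT(-). CYP708A2 had 57.2 FPKM in CPL4RNAi(+) and 6.56 in CPL4RNAi(-), against 37.1 in WT(+) and 4.62 in WT(-). CYP705A5 had 43.9 FPKM in CPL4RNAi(+) and 4.50 in CPL4RNAi(-), against 31.9 in WT(+) and 1.98 in WT(-). All 3 were already measurable without cytokinin and high with it in both genotypes. AT5G47980 had 9.61 FPKM in CPL4RNAi(+) and 0.418 in CPL4RNAi(-), against 6.28 in WT(+) and 0.172 in WT(-), and its fold of 36.5 was the largest of any member in wild type. AT5G47950 had 5.72 FPKM in CPL4RNAi(+) and 1.41 in CPL4RNAi(-), against 2.03 in WT(+) and 0.439 in WT(-), close to the level threshold in wild type.

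The members of the cluster lie between bases 19417020 and 19461706 of chromosome 5 (TAIR10.1), and none of the genes among and beside them reached the 2-fold threshold. RABA4C, a membrane traffic GTPase gene inside the interval, had 13.9 FPKM in CPL4RNAi(+) and 14.0 in CPL4RNAi(-), against 11.2 in WT(+) and 9.64 in WT(-). AT5G47970, also inside it, had 12.5 FPKM in CPL4RNAi(+) and 10.5 in CPL4RNAi(-), against 12.4 in WT(+) and 13.0 in WT(-). AT5G48020, the next gene beyond THAS1, had 54.3 FPKM in CPL4RNAi(+) and 46.3 in CPL4RNAi(-), against 25.2 in WT(+) and 24.4 in WT(-). Neither RABA4C nor AT5G47970 nor AT5G48020 was called for cytokinin in either genotype, although AT5G48020 was called higher in the groups labelled CPL4RNAi in both media. On the other side, the ribosomal protein genes AT5G47940 and AT5G47930 were called for cytokinin in the groups labelled CPL4RNAi, at log2 differences of 0.32 and 0.26, and not called in wild type. Between genotypes all 4 tested cluster members were called higher in the groups labelled CPL4RNAi without cytokinin and all 5 with it. Of all tested genes, 22.5% were called higher and 21.5% lower without cytokinin, and 24.7% higher and 24.7% lower with it. For AT5G47950, the log2 difference was 1.68 (SE 0.48) without cytokinin and 1.49 (SE up to 0.37) with it. For CYP705A5 it was 1.18 (SE up to 0.29) without and 0.46 (SE up to 0.11) with cytokinin. The standard error (SE) here is the one that the deposited p-value implies, and it is an upper bound where that p stands at its smallest value of 5e-05.

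**Figure D2:**
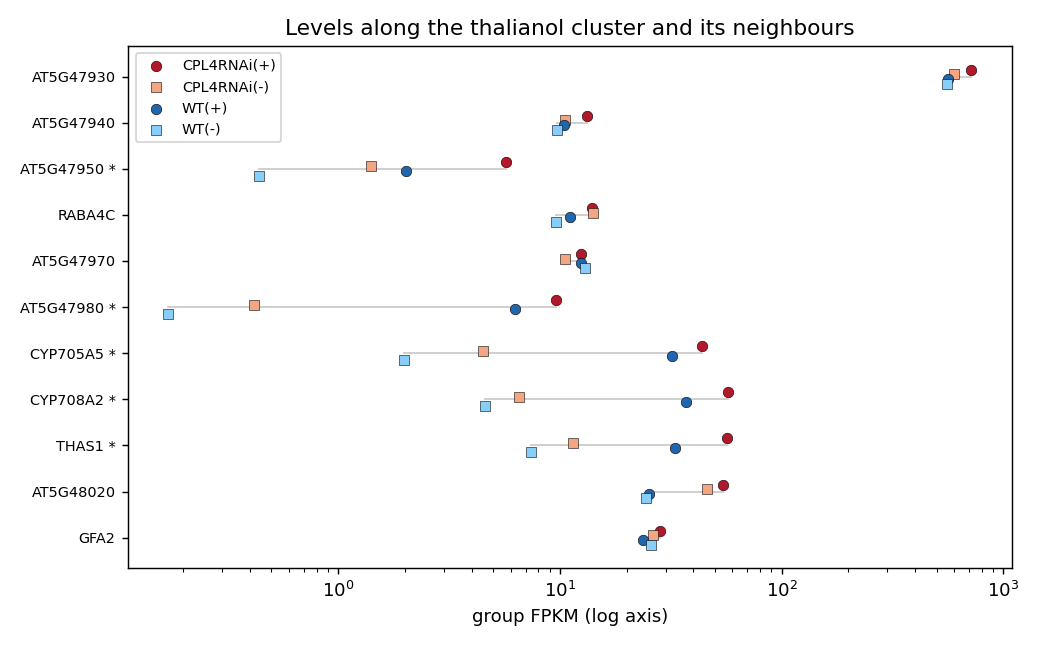
Group FPKM (log axis) of the genes along the thalianol cluster in chromosomal order, with members marked by an asterisk. Red and orange marks are CPL4RNAi(+) and CPL4RNAi(-), dark and light blue marks WT(+) and WT(-). In the 5 members both (-) groups lie to the left of both (+) groups, with CPL4RNAi(-) close to WT(+) for AT5G47950, while the marks of RABA4C and AT5G47970 lie together.

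Enzymes of specialised metabolism outside that cluster made up 20 members, with a median of 14.4 FPKM in CPL4RNAi(+) and 4.10 in CPL4RNAi(-), against 8.58 in WT(+) and 2.44 in WT(-). ST4B, a sulfotransferase, had 63.9 FPKM in CPL4RNAi(+) and 7.29 in CPL4RNAi(-), against 26.3 in WT(+) and 1.77 in WT(-). AT3G45070 (SULT202B1), another sulfotransferase, had 24.6 FPKM in CPL4RNAi(+) and 4.24 in CPL4RNAi(-), against 6.29 in WT(+) and 0.436 in WT(-). AT4G11190, whose promoter is shown above, had 139.7 FPKM in CPL4RNAi(+) and 16.6 in CPL4RNAi(-), against 24.7 in WT(+) and 3.08 in WT(-). These 3 were called higher in the groups labelled CPL4RNAi in both media, AT4G11190 by 2.43 (SE up to 0.60) on the log2 scale without cytokinin and 2.50 (SE up to 0.62) with it. AT1G14120, the oxygenase with a G-box, had 35.9 FPKM in CPL4RNAi(+) and 5.06 in CPL4RNAi(-), against 8.62 in WT(+) and 0.874 in WT(-). NSP4, a nitrile specifier protein of glucosinolate breakdown, had 46.2 FPKM in CPL4RNAi(+) and 12.9 in CPL4RNAi(-), against 18.0 in WT(+) and 5.02 in WT(-). Both were called higher in the groups labelled CPL4RNAi in each medium, NSP4 by 1.36 (SE up to 0.34) without and 1.36 (SE up to 0.33) with cytokinin.

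FAR5, which makes fatty alcohols from fatty acyl groups, had 74.7 FPKM in CPL4RNAi(+) and 32.1 in CPL4RNAi(-), against 25.4 in WT(+) and 6.49 in WT(-). AT5G44390, of the berberine bridge enzyme family, had 9.77 FPKM in CPL4RNAi(+) and 3.96 in CPL4RNAi(-), against 2.80 in WT(+) and 0.719 in WT(-). In both genes the level without cytokinin in the line labelled CPL4RNAi was above the level with cytokinin in wild type. A neighbouring trio on chromosome 5 comprised the methyltransferase-like genes AT5G37990 and AT5G38020 and the dehydrogenase-like gene AT5G38000. AT5G38020 had 61.0 FPKM in CPL4RNAi(+) and 13.0 in CPL4RNAi(-), against 33.0 in WT(+) and 5.72 in WT(-). AT5G37990 had 58.4 FPKM in CPL4RNAi(+) and 15.9 in CPL4RNAi(-), against 27.4 in WT(+) and 9.84 in WT(-). AT5G38000 had 16.9 FPKM in CPL4RNAi(+) and 3.41 in CPL4RNAi(-), against 8.87 in WT(+) and 2.92 in WT(-). All 3 were highest in CPL4RNAi(+) and lowest in WT(-).

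PMAT2, an acyltransferase that adds malonyl groups to phenolic glucosides, ran the other way between genotypes. It had 3.22 FPKM in CPL4RNAi(+) and 0.316 in CPL4RNAi(-), against 5.76 in WT(+) and 2.56 in WT(-), a fold of 10.2 in the groups labelled CPL4RNAi and 2.25 in wild type. Its log2 genotype difference was -3.02 (SE up to 0.74) without cytokinin and -0.84 (SE up to 0.21) with it. The cytochrome P450 gene CYP702A1 had 3.15 FPKM in CPL4RNAi(+) and 0.911 in CPL4RNAi(-), against 5.89 in WT(+) and 2.103 in WT(-), and AT4G35160, an annotated O-methyltransferase, had 4.24 FPKM in CPL4RNAi(+) and 0.626 in CPL4RNAi(-), against 7.08 in WT(+) and 1.26 in WT(-). Both were called lower in the groups labelled CPL4RNAi in both media. AT1G64590, of the Rossmann-fold family, was lower with cytokinin by -0.68 (SE 0.19) and not tested without it. In all, 11 of the 19 enzymes tested without cytokinin were called higher and 3 lower, beside 22.5% and 21.5% of all tested genes. With cytokinin 11 of 20 were called higher and 4 lower, beside 24.7% in each direction, so the lower calls stood near the share of all genes.

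The 14 transcription and growth regulators included genes called higher and genes called lower in the groups labelled CPL4RNAi. LBD3, a LOB-domain transcription factor, had 49.8 FPKM in CPL4RNAi(+) and 7.56 in CPL4RNAi(-), against 22.2 in WT(+) and 2.86 in WT(-). ANT, an AP2-type factor that promotes organ growth and cell proliferation, had 22.7 FPKM in CPL4RNAi(+) and 9.68 in CPL4RNAi(-), against 14.8 in WT(+) and 3.83 in WT(-). MEE3, a RADIALIS-like MYB protein, had 23.1 FPKM in CPL4RNAi(+) and 3.93 in CPL4RNAi(-), against 3.95 in WT(+) and 1.16 in WT(-). All 3 were called higher in the groups labelled CPL4RNAi in both media, MEE3 by 1.76 (SE 0.50) without cytokinin and 2.55 (SE up to 0.63) with it, and LBD3 by 1.40 (SE up to 0.35) and 1.17 (SE up to 0.29) in the same order of media. MEE3 stood near the same level in CPL4RNAi(-) and in WT(+). GASA5, a small secreted peptide of a gibberellin-responsive family, was the most abundant regulator, with 205 FPKM in CPL4RNAi(+) and 70.2 in CPL4RNAi(-), against 108 in WT(+) and 25.0 in WT(-). NAC071, a NAC factor known from the rejoining of cut stems, had 13.4 FPKM in CPL4RNAi(+) and 5.23 in CPL4RNAi(-), against 9.47 in WT(+) and 3.05 in WT(-). HRS1, a MYB-like factor of nutrient responses, had 6.99 FPKM in CPL4RNAi(+) and 3.25 in CPL4RNAi(-), against 4.71 in WT(+) and 2.19 in WT(-). These 3 were also called higher in both media.

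IAA3, an Aux/IAA repressor of auxin responses and a known meeting point of cytokinin and auxin in the root, had 10.9 FPKM in CPL4RNAi(+) and 3.76 in CPL4RNAi(-), against 22.2 in WT(+) and 9.85 in WT(-). Its cytokinin folds were 2.91 in the groups labelled CPL4RNAi and 2.25 in wild type, while its level was lower in the groups labelled CPL4RNAi by -1.39 (SE up to 0.34) without and -1.02 (SE up to 0.25) with cytokinin. In CPL4RNAi(+) IAA3 therefore stood near its level in WT(-). AT1G64625 (LHL3), a LONESOME HIGHWAY-like gene, had 14.1 FPKM in CPL4RNAi(+) and 5.20 in CPL4RNAi(-), against 21.2 in WT(+) and 8.28 in WT(-) and was called lower in both media. AT2G40130 (SMXL8), of the SMAX1-like family, had 4.71 FPKM in CPL4RNAi(+) and 1.28 in CPL4RNAi(-), against 5.33 in WT(+) and 2.50 in WT(-). ARGOS, an auxin-induced promoter of organ size, had 26.6 FPKM in CPL4RNAi(+) and 6.93 in CPL4RNAi(-), against 23.6 in WT(+) and 11.7 in WT(-). AT2G40130 and ARGOS were called lower without cytokinin, by -0.96 (SE up to 0.24) and -0.76 (SE 0.21), and with it their differences of -0.18 (SE 0.14) and 0.17 (SE 0.14) were not called. IAA3 and AT2G40130 each overlap an annotated gene on the opposite strand, which a stranded library can keep apart only if the counting used strand, and that is not given in the sources used here.

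The remaining regulators reached at most 7.42 FPKM in any group. NAC005 had 3.98 FPKM in CPL4RNAi(+) and 0.369 in CPL4RNAi(-), against 2.65 in WT(+) and 0.877 in WT(-) and was called higher in the groups labelled CPL4RNAi with cytokinin alone. AT5G61620, an annotated MYB-like factor, had 3.51 FPKM in CPL4RNAi(+) and 1.54 in CPL4RNAi(-), against 3.07 in WT(+) and 1.08 in WT(-), and OFP1, an OVATE family repressor, had 4.20 FPKM in CPL4RNAi(+) and 2.00 in CPL4RNAi(-), against 5.51 in WT(+) and 2.70 in WT(-). RTFL7, of the ROTUNDIFOLIA-like small peptides, had 7.42 FPKM in CPL4RNAi(+) and 2.94 in CPL4RNAi(-), against 5.88 in WT(+) and 1.93 in WT(-). None of these last 3 was called between genotypes in either medium. Over the 14 regulators, 6 were called higher and 4 lower without cytokinin, beside 22.5% and 21.5% of all tested genes, and 7 higher and 2 lower with it, beside 24.7% in each direction. The 4 lower calls are near the share of all genes.

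**Figure D3:**
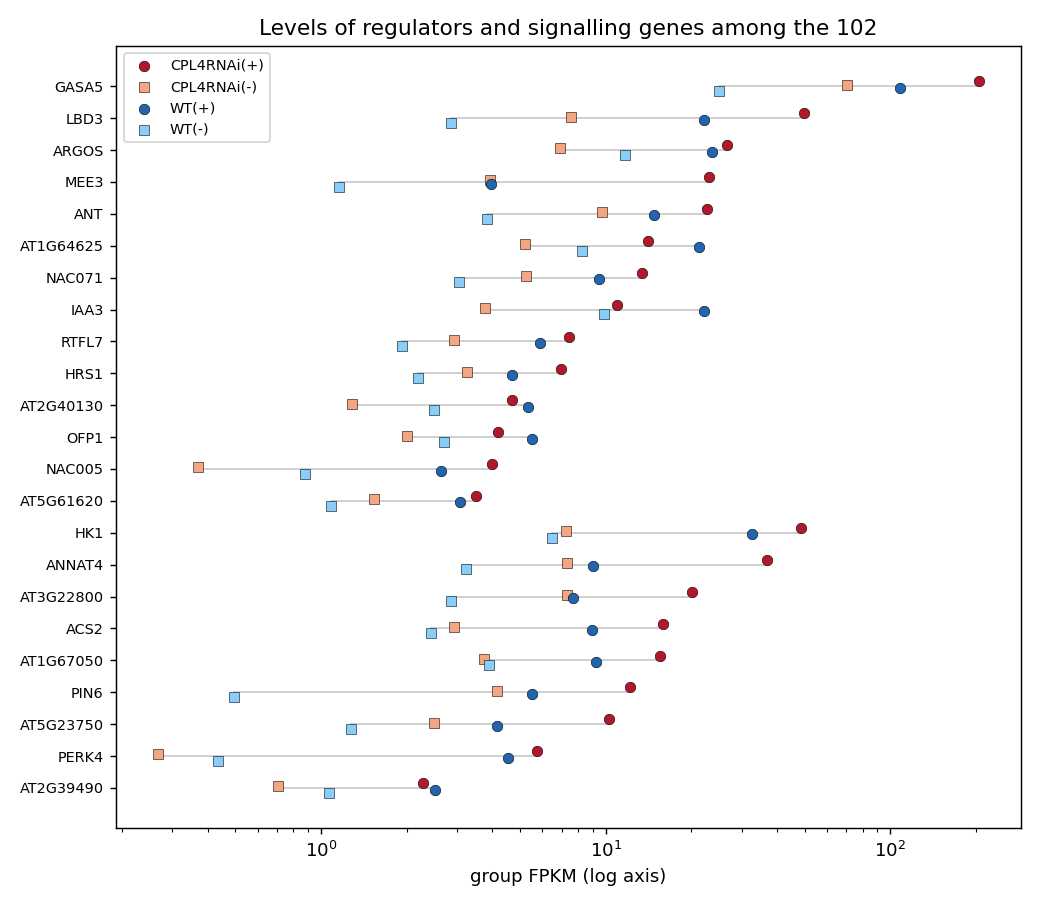
Group FPKM (log axis) of the 14 regulators and, below them, the 9 signalling and hormone genes. Red and orange marks are CPL4RNAi(+) and CPL4RNAi(-), dark and light blue marks WT(+) and WT(-). IAA3 has both CPL4RNAi marks to the left of the matching WT marks, whereas ANNAT4 and MEE3 have CPL4RNAi(+) far to the right of the other groups.

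Of the 9 signalling and hormone genes 0 were called lower in the groups labelled CPL4RNAi in either medium by Cuffdiff, and 0 also at an unadjusted p under 0.05. Called higher were 4 of 8 tested without cytokinin and 7 of 9 with it. Of all tested genes, 22.5% were called higher and 21.5% lower without cytokinin, and 24.7% in each direction with it. HK1, a membrane histidine kinase linked to osmotic sensing and related to the cytokinin receptors, had 48.7 FPKM in CPL4RNAi(+) and 7.24 in CPL4RNAi(-), against 32.7 in WT(+) and 6.49 in WT(-). ACS2, an enzyme of ethylene precursor synthesis, had 15.8 FPKM in CPL4RNAi(+) and 2.94 in CPL4RNAi(-), against 8.96 in WT(+) and 2.44 in WT(-). Without cytokinin their log2 differences between genotypes, 0.16 (SE 0.12) and 0.27 (SE 0.19), were not called. With cytokinin they were called higher in the groups labelled CPL4RNAi, by 0.58 (SE up to 0.14) and 0.82 (SE up to 0.20). ANNAT4, a calcium-dependent membrane-binding annexin, had 36.8 FPKM in CPL4RNAi(+) and 7.31 in CPL4RNAi(-), against 9.06 in WT(+) and 3.24 in WT(-) and differed by 1.18 (SE up to 0.29) without and 2.02 (SE up to 0.50) with cytokinin.

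PIN6, an auxin carrier, had 12.2 FPKM in CPL4RNAi(+) and 4.17 in CPL4RNAi(-), against 5.52 in WT(+) and 0.495 in WT(-). Its fold was 2.92 in the groups labelled CPL4RNAi and 11.1 in wild type, and its level without cytokinin was higher in the groups labelled CPL4RNAi by 3.07 (SE up to 0.76). The receptor kinase gene PERK4 had 5.75 FPKM in CPL4RNAi(+) and 0.267 in CPL4RNAi(-), against 4.54 in WT(+) and 0.434 in WT(-), and AT5G23750, a remorin of the plasma membrane, had 10.3 FPKM in CPL4RNAi(+) and 2.50 in CPL4RNAi(-), against 4.14 in WT(+) and 1.27 in WT(-). PERK4 was not tested without cytokinin and not called with it, whereas AT5G23750 was called higher in both media. AT3G22800, a leucine-rich repeat protein, had 20.1 FPKM in CPL4RNAi(+) and 7.30 in CPL4RNAi(-), against 7.68 in WT(+) and 2.87 in WT(-) and was likewise called higher in both. AT1G67050, annotated as a kinase regulator of membranes, had 15.5 FPKM in CPL4RNAi(+) and 3.74 in CPL4RNAi(-), against 9.25 in WT(+) and 3.91 in WT(-) and was called higher with cytokinin alone. The F-box gene AT2G39490 had 2.29 FPKM in CPL4RNAi(+) and 0.706 in CPL4RNAi(-), against 2.51 in WT(+) and 1.07 in WT(-) and was not called.

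The 10 genes of the cell wall, of expansion and of water channels were called higher in the groups labelled CPL4RNAi or not called, 7 higher and 0 lower in each medium (0 lower also at an unadjusted Cuffdiff p under 0.05), where 22.5% of all tested genes were higher and 21.5% lower without cytokinin and 24.7% in each direction with it. EXPA8, an expansin that loosens walls, had 24.4 FPKM in CPL4RNAi(+) and 10.4 in CPL4RNAi(-), against 15.1 in WT(+) and 2.35 in WT(-). Its genotype difference was 2.14 (SE up to 0.53) without cytokinin and 0.69 (SE up to 0.17) with it. The tonoplast aquaporin genes DELTA-TIP and AT3G26520 (TIP1;2) had cytokinin folds of 2.49 and 2.11 in the groups labelled CPL4RNAi, and of 2.93 and 2.21 in wild type. AT3G26520 was the stronger, with 105 FPKM in CPL4RNAi(+) and 49.6 in CPL4RNAi(-), against 70.0 in WT(+) and 31.6 in WT(-). AT2G43480, an annotated peroxidase, had 20.5 FPKM in CPL4RNAi(+) and 7.97 in CPL4RNAi(-), against 2.92 in WT(+) and 1.39 in WT(-), and its log2 difference of 2.82 (SE up to 0.69) with cytokinin was the largest called among the members in that medium. AT2G41810, of a family with an unknown cell wall domain (DUF642), had 27.1 FPKM in CPL4RNAi(+) and 3.87 in CPL4RNAi(-), against 10.0 in WT(+) and 0.555 in WT(-), and CEL5, a cellulase of the root cap, had 32.4 FPKM in CPL4RNAi(+) and 7.03 in CPL4RNAi(-), against 12.7 in WT(+) and 6.28 in WT(-). CEL5 was not called between genotypes without cytokinin, at 0.16 (SE 0.14), and was called higher in the groups labelled CPL4RNAi with it, at 1.36 (SE up to 0.33). AT2G34060, an annotated peroxidase, was called higher without cytokinin alone, and TBL22 and AT4G12545 in neither medium.

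Among the 7 transporter genes, 3 of 6 tested were called higher and 1 lower in the groups labelled CPL4RNAi without cytokinin. With it 3 of 7 were called higher and 3 lower. The shares of all tested genes were 22.5% higher and 21.5% lower without cytokinin, and 24.7% in each direction with it. With so few genes nothing is read from these counts. AT5G17700, of the MATE efflux family, had 5.93 FPKM in CPL4RNAi(+) and 1.36 in CPL4RNAi(-), against 3.71 in WT(+) and 0.603 in WT(-), and AT1G72140, of the major facilitator family, had 12.7 FPKM in CPL4RNAi(+) and 2.96 in CPL4RNAi(-), against 7.28 in WT(+) and 1.63 in WT(-). AT3G59340, a solute carrier family gene, had 6.80 FPKM in CPL4RNAi(+) and 1.71 in CPL4RNAi(-), against 2.11 in WT(+) and 0.510 in WT(-). These 3 were called higher in the groups labelled CPL4RNAi in both media. AT1G25530, an annotated amino acid transporter, was the strongest of the group, with 48.1 FPKM in CPL4RNAi(+) and 22.6 in CPL4RNAi(-), against 69.5 in WT(+) and 32.8 in WT(-), and was called lower in both media. ABCG30 had 7.64 FPKM in CPL4RNAi(+) and 3.24 in CPL4RNAi(-), against 11.2 in WT(+) and 2.99 in WT(-) and AT1G33440 (NPF4.4) had 3.57 FPKM in CPL4RNAi(+) and 1.70 in CPL4RNAi(-), against 5.86 in WT(+) and 1.33 in WT(-). Both were called lower with cytokinin alone, ABCG30 by -0.55 (SE up to 0.14) and AT1G33440 by -0.72 (SE up to 0.18). AT3G45680 had 2.77 FPKM in CPL4RNAi(+) and 0.614 in CPL4RNAi(-), against 2.22 in WT(+) and 0.131 in WT(-). Between genotypes it was not tested without cytokinin and not called with it.

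The largest group, with 23 members, held storage proteins, phosphatases, lectins and defence-linked proteins, and the largest folds in the groups labelled CPL4RNAi. It was mixed, and also held the thioredoxin gene TH8, the lipase-like gene TLL1 and the annotated proteases AT5G19110 and AT5G07030, among others. VSP1 and VSP2 encode vegetative storage proteins, known as jasmonate-induced genes of aerial tissue. VSP1 had 14.2 FPKM in CPL4RNAi(+) and 0.0920 in CPL4RNAi(-), against 7.29 in WT(+) and 0.329 in WT(-), and VSP2 had 9.97 FPKM in CPL4RNAi(+) and 0.0661 in CPL4RNAi(-), against 3.40 in WT(+) and 0.149 in WT(-). The VSP1 fold was 155 in the groups labelled CPL4RNAi and 22.2 in wild type, on levels without cytokinin under 1 FPKM. In the authors' deposited table the cytokinin q of VSP2 was 0.308 in the groups labelled CPL4RNAi and 0.176 in wild type, in spite of folds of 151 and 22.8. The size of both folds rests on values close to 0, and these near copies lie side by side on chromosome 5 with 1 gene between them, so reads may be shared. With cytokinin, VSP1 and VSP2 were called higher in the groups labelled CPL4RNAi by 0.97 (SE up to 0.24) and 1.55 (SE up to 0.38).

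The abundant members of this group had folds well below those of VSP1 and VSP2. These folds ran from 2.16 for AT5G23820 in wild type to 5.61 for AT4G23670 in the groups labelled CPL4RNAi. AT5G26260, of the TRAF-like family, had 393 FPKM in CPL4RNAi(+) and 79.5 in CPL4RNAi(-), against 191 in WT(+) and 39.2 in WT(-). JAL22, a jacalin-related lectin, had 273 FPKM in CPL4RNAi(+) and 84.6 in CPL4RNAi(-), against 121 in WT(+) and 41.4 in WT(-). AT4G23670, of a lipid transport superfamily, had 190.0 FPKM in CPL4RNAi(+) and 33.9 in CPL4RNAi(-), against 93.4 in WT(+) and 23.1 in WT(-), and AT5G23820, an MD-2-related lipid recognition protein like AT2G16005, had 179 FPKM in CPL4RNAi(+) and 69.8 in CPL4RNAi(-), against 120.3 in WT(+) and 55.7 in WT(-). All 4 were called higher in the groups labelled CPL4RNAi in both media, AT5G26260 by 1.02 (SE up to 0.25) without and 1.04 (SE up to 0.26) with cytokinin. AT2G28680, of the cupin superfamily, had 9.82 FPKM in CPL4RNAi(+) and 4.46 in CPL4RNAi(-), against 4.63 in WT(+) and 0.457 in WT(-), and its difference without cytokinin, 3.29 (SE up to 0.81), was the largest called among the members in that medium.

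The neighbouring genes MLP328 and MLP329, major latex protein-like genes that may share reads, were below wild type when cytokinin was present. MLP328 had 9.43 FPKM in CPL4RNAi(+) and 2.11 in CPL4RNAi(-), against 12.9 in WT(+) and 1.15 in WT(-) and was called in opposite directions, at 0.88 (SE 0.37) without cytokinin and -0.46 (SE 0.17) with it. MLP329 had 12.8 FPKM in CPL4RNAi(+) and 5.05 in CPL4RNAi(-), against 22.8 in WT(+) and 6.32 in WT(-). YLS9, linked to senescence and defence, had 5.76 FPKM in CPL4RNAi(+) and 2.19 in CPL4RNAi(-), against 12.9 in WT(+) and 2.96 in WT(-), and its difference of -1.16 (SE up to 0.29) with cytokinin was the largest called in the lower direction in that medium. AT1G55240 was called lower with cytokinin as well, by -0.35 (SE 0.13). Of the purple acid phosphatases, which free phosphate from organic compounds, PAP10 had 20.3 FPKM in CPL4RNAi(+) and 6.97 in CPL4RNAi(-), against 12.1 in WT(+) and 5.49 in WT(-) and PAP7 had 2.03 FPKM in CPL4RNAi(+) and 0.672 in CPL4RNAi(-), against 2.92 in WT(+) and 0.739 in WT(-). PAP10 was called higher with cytokinin alone, and PAP7 was not tested without cytokinin and not called with it. In this group 11 of 20 tested members were called higher and 0 lower without cytokinin, and 16 of 23 higher and 4 lower with it, where all tested genes had 22.5% higher and 21.5% lower without cytokinin and 24.7% in each direction with it. At an unadjusted Cuffdiff p under 0.05, 2 members were lower without cytokinin, AT1G55240 and TH8.

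The last 14 members were sorted as uncharacterised or non-coding from their annotation alone, which need not hold all that is known of a gene. MIR414, a microRNA precursor, had 61.6 FPKM in CPL4RNAi(+) and 19.4 in CPL4RNAi(-), against 42.1 in WT(+) and 12.1 in WT(-) in these libraries, which measure the precursor transcript and not the mature microRNA. The non-coding gene AT2G41312 lies 642 bases beyond the end of the type-A regulator gene ARR8 on the same strand. It had 6.03 FPKM in CPL4RNAi(+) and 2.67 in CPL4RNAi(-), against 3.61 in WT(+) and 1.48 in WT(-), while ARR8 itself had 20.9 FPKM in CPL4RNAi(+) and 12.4 in CPL4RNAi(-), against 21.0 in WT(+) and 16.1 in WT(-) and stayed under the 2-fold threshold in both genotypes. The neighbours AT1G47395 and AT1G47400 had folds of 3.90 and 3.55 in the groups labelled CPL4RNAi, and of 4.73 and 3.95 in wild type. Neither was called between genotypes. AT3G61920 had 12.7 FPKM in CPL4RNAi(+) and 6.31 in CPL4RNAi(-), against 3.97 in WT(+) and 0.785 in WT(-), and its genotype difference was 3.01 (SE up to 0.74) without and 1.68 (SE up to 0.41) with cytokinin. In this group 4 of 12 tested members were called higher without cytokinin, where 22.5% of all tested genes were. With cytokinin 6 of 14 were called higher and 1 lower, where 24.7% of all tested genes were in each direction.

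The genotype differences, which the rule did not use, were then read over all members. They share their groups with the contrasts of the rule, and the FPKM minimum acts on the cytokinin groups alone. Without cytokinin 93 members were tested, and 50 (53.8%) were called higher in the groups labelled CPL4RNAi, where 22.5% of all 19277 tested genes were. Lower were 8 members (8.60%), where 21.5% of all tested genes were. With cytokinin 62 of 102 (60.8%) were called higher against a background of 24.7%, and 14 (13.7%) lower against 24.7%. Among tested genes at or above 2 FPKM in both cytokinin groups, the shares called higher were 22.2% without and 24.7% with cytokinin, close to those of all genes. The median log2 difference of the members was 0.65 in each medium, while that of all tested genes was 0.00 without cytokinin and 0.01 with it. Those members that were called thus lay mostly on the higher side in both media. The 9 members not tested without cytokinin were AT5G47980, VSP1, VSP2, PERK4, AT1G64590, AT3G45680, AT1G58010, PAP7 and AT2G26267.

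**Figure D4:**
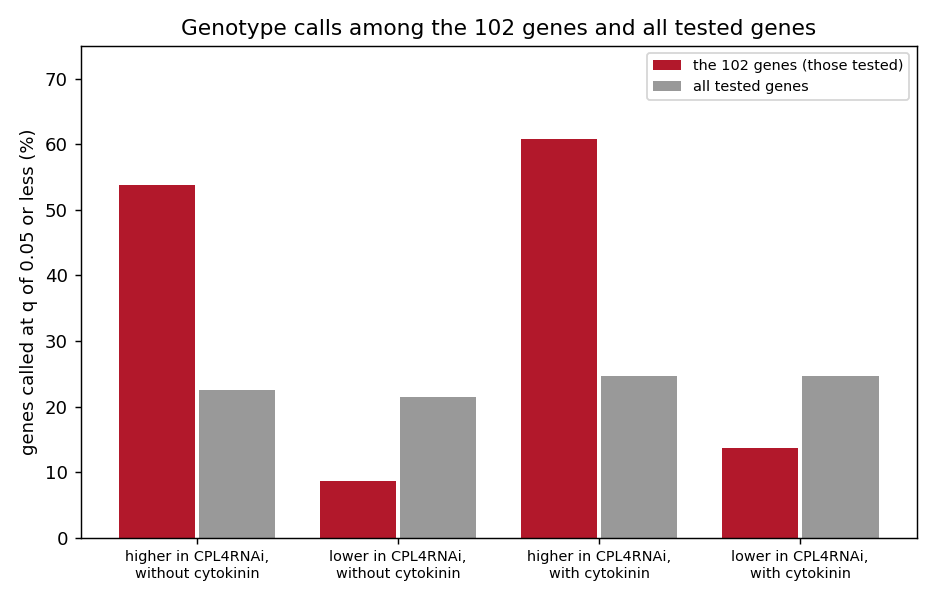
Share of genes called higher or lower in the groups labelled CPL4RNAi than in wild type at a deposited q-value of 0.05 or less, for tested members (red) and all tested genes (grey), without and with cytokinin. The members stand above all genes for the higher direction, at 53.8% and 60.8%, and below them for the lower direction, at 8.60% and 13.7%.

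Across media, 47 members were called higher in both and 6 lower in both, and MLP328 alone was called in opposite directions. The 6 were AT4G35160, CYP702A1, AT1G64625, PMAT2, IAA3 and AT1G25530. A further 22 were called with cytokinin alone and 4 without it alone, and 22 were called in neither medium. These counts take the 9 members not tested without cytokinin as not called in that medium. The share of all tested genes called in both media was not computed, so the counts over both media are a description. By the rule, each cytokinin group stands at least 2 times above the matching group without it, so the highest group is always a (+) group and the lowest a (-) group. Ranked by level, 59 members had the order CPL4RNAi(+), WT(+), CPL4RNAi(-), WT(-) from high to low, and 19 the order WT(+), CPL4RNAi(+), WT(-), CPL4RNAi(-). The highest group was CPL4RNAi(+) for 76 members and WT(+) for 26, and the lowest was WT(-) for 74 and CPL4RNAi(-) for 28. In 8 members CPL4RNAi(-) was above WT(+), namely AT5G44390, FAR5, AT3G21680, AT1G14240, AT3G27400, AT5G07030, AT2G43480 and AT3G61920. In the other 94 members both cytokinin groups stood above both groups without it. These orders come from the same 4 values as the rule and are a description.

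**Figure D5:**
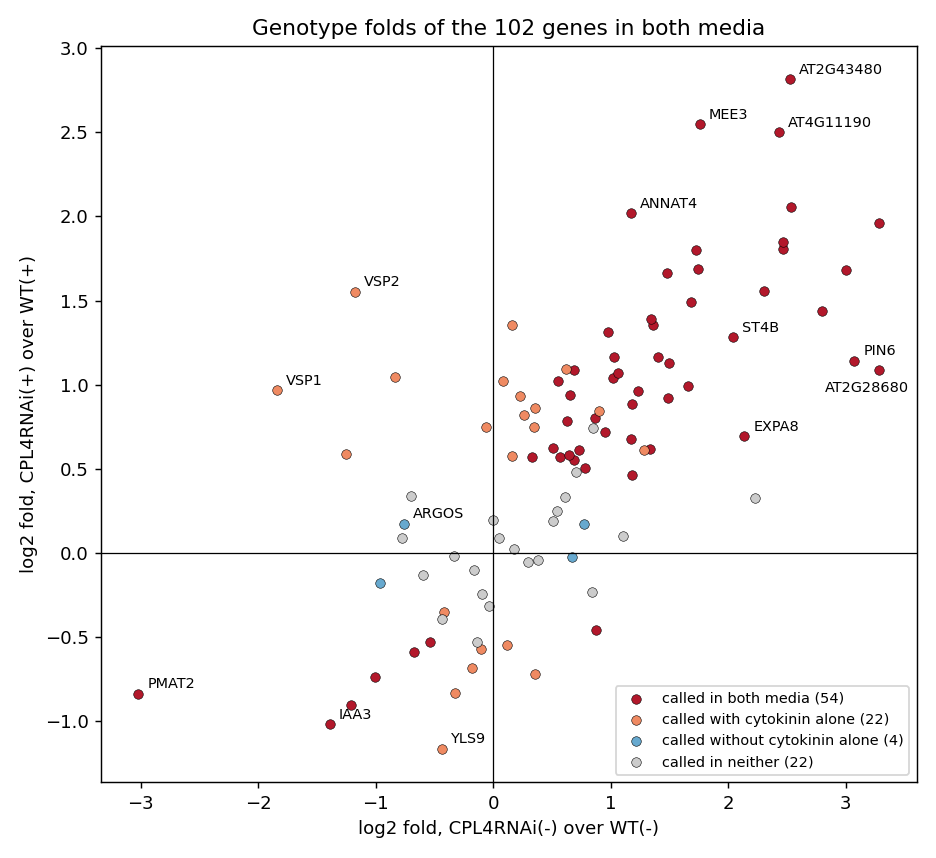
Log2 difference of the 102 genes between the groups labelled CPL4RNAi and wild type, with cytokinin (vertical axis) against without it (horizontal axis), coloured by the medium in which the deposited q-value was 0.05 or less. Most dark red points, called in both media, lie at the upper right, with IAA3 and PMAT2 in the lower left.

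Several marker lists differed between genotypes. Among all tested genes, 22.5% were called higher and 21.5% lower in the groups labelled CPL4RNAi without cytokinin, and 24.7% in each direction with it. The 10 xylem and secondary wall genes together held 59.7 FPKM in CPL4RNAi(+) and 92.0 in CPL4RNAi(-), against 46.5 in WT(+) and 7.91 in WT(-), and 10 of 10 were called higher in the groups labelled CPL4RNAi without cytokinin and 3 of 10 with it. None of the 10 was a member or at 0 in any group. By the cytokinin contrast 9 of them were called lower in the groups labelled CPL4RNAi, beside 8.88% of all tested genes. In wild type 8 were called higher, beside 6.58%. The 10 root identity genes held 141 FPKM in CPL4RNAi(+) and 201 in CPL4RNAi(-), against 251 in WT(+) and 301 in WT(-), with 2 called higher and 3 lower of 8 without cytokinin and 3 higher and 3 lower of 9 with it. The calls thus went both ways, and most of the gap between the sums lay in WOX5, whose values are given above. CASP1, of the endodermal barrier, ran against it, with 7.23 FPKM in CPL4RNAi(+) and 26.5 in CPL4RNAi(-), against 1.88 in WT(+) and 9.07 in WT(-), as did the phosphate exporter gene PHO1, with 2.27 FPKM in CPL4RNAi(+) and 5.67 in CPL4RNAi(-), against 0.943 in WT(+) and 1.84 in WT(-).

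The 11 shoot regeneration regulators held 402 FPKM in CPL4RNAi(+) and 332 in CPL4RNAi(-), against 353 in WT(+) and 264 in WT(-). Most of each sum lay in RAP2.6L and WIND1, whose values are given below. Of 8 tested, 5 were called higher and 0 lower without cytokinin (0 lower also at an unadjusted Cuffdiff p under 0.05), and 5 higher and 1 lower with it. For this list and the next ones, the shares of all tested genes were 22.5% higher and 21.5% lower without cytokinin. With it they were 24.7% in each direction. STM, which keeps shoot meristem cells undifferentiated, had 21.9 FPKM in CPL4RNAi(+) and 21.7 in CPL4RNAi(-), against 0.0436 in WT(+) and 0.0652 in WT(-), and CUC1, a NAC factor of shoot meristem and organ boundaries, had 24.2 FPKM in CPL4RNAi(+) and 17.8 in CPL4RNAi(-), against 1.80 in WT(+) and 1.88 in WT(-). WUS, the organiser of the shoot stem cell niche, had 1.28 FPKM in CPL4RNAi(+) and 1.32 in CPL4RNAi(-) and was listed at 0 in WT(+) and WT(-). STM was called higher without cytokinin and not called with it, at a Cuffdiff q of 0.415. The gene called lower with cytokinin was RAP2.6L, with 111 FPKM in CPL4RNAi(+) and 109 in CPL4RNAi(-), against 157 in WT(+) and 117 in WT(-). WIND1 had 157 FPKM in CPL4RNAi(+) and 146 in CPL4RNAi(-), against 158 in WT(+) and 131 in WT(-). It was called in neither medium. The salicylic acid and immune list of 11 genes held 231 FPKM in CPL4RNAi(+) and 130.5 in CPL4RNAi(-), against 529.7 in WT(+) and 472 in WT(-), with 0 higher and 9 lower of 10 tested without cytokinin and 0 higher and 9 lower of 9 with it (0 higher also at an unadjusted Cuffdiff p under 0.05 in both media). The 6 cambium and phloem genes were called 3 higher and 3 lower without cytokinin, and 2 higher and 3 lower with it. The part of these cell types and pathways in the members' differences was not tested.

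The cytokinin families left out of the set were read between genotypes too. Of their 17 genes 12 were tested without cytokinin, and 0 were called higher and 6 lower in the groups labelled CPL4RNAi by Cuffdiff (0 and 8 at an unadjusted p under 0.05), beside 22.5% and 21.5% of all tested genes. With cytokinin 4 of 16 were called higher and 5 lower, near the 24.7% of all tested genes in each direction. ARR7 had 46.7 FPKM in CPL4RNAi(+) and 6.35 in CPL4RNAi(-), against 33.5 in WT(+) and 9.54 in WT(-), and CKX5 had 30.0 FPKM in CPL4RNAi(+) and 8.87 in CPL4RNAi(-), against 26.0 in WT(+) and 12.3 in WT(-). CKX3, with 126 FPKM in CPL4RNAi(+) and 59.8 in CPL4RNAi(-), against 185 in WT(+) and 116 in WT(-), stayed below the 2-fold threshold in wild type. Without cytokinin these feedback genes were thus lower or not called in the groups labelled CPL4RNAi, whereas the called members were mostly higher there, and the difference between the families and the members was not tested.

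Other genes of the cytokinin pathway supplied no member. Of all tested genes, 8.42% were called higher and 8.88% lower with cytokinin in the groups labelled CPL4RNAi, and 6.58% higher and 3.71% lower in wild type. Of 8 tested receptor and phosphotransfer genes 2 were called higher and 2 lower with cytokinin in the groups labelled CPL4RNAi, and 0 higher and 1 lower in wild type. Of 6 type-B response regulators 0 were called higher and 3 lower in the groups labelled CPL4RNAi, and 0 in either direction in wild type, where an unadjusted p under 0.05 also gave 0 and 0. Of 14 genes for cytokinin synthesis, conjugation and transport 2 were higher and 6 lower in the groups labelled CPL4RNAi, and 1 higher and 2 lower in wild type. Among 6 cytokinin response factors 1 was higher and 1 lower in the groups labelled CPL4RNAi, and 0 higher and 1 lower in wild type. The CC-type glutaredoxins, redox proteins of which some respond to cytokinin, had 3 higher and 1 lower of 11 tested in the groups labelled CPL4RNAi and 1 higher of 7 in wild type. Lists of other pathways supplied members too, with 5 of 8 thalianol and marneral genes, 2 of 15 jasmonate genes (VSP1 and VSP2), 1 of 18 auxin response genes (IAA3), 1 of 16 expansins (EXPA8) and 1 of 11 shoot regeneration regulators (LBD3). The salicylic acid, cambium and phloem, leaf photosynthesis and root identity lists supplied 0.

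In position, 16 members lay in 10 pairs with at most 2 genes between them, and the thalianol genes were the largest such run. Chromosome 2 held 26 members (25.5%), against 15.1% of the genes at or above 2 FPKM in both cytokinin groups, and chromosome 1 held 27. Another annotated gene overlapped 10 members, on the opposite strand for 9 and on the same strand for ABCG30, so their levels are less certain. The shares of all genes in such pairs or with such overlaps were not computed, so both counts are a description.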

How the data were processed

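Libraries of total RNA were stranded, depleted of ribosomal RNA and read as pairs of 125 nt, per the labels' protocols. Per the submitters' processing notes, bcl2fastq 2.17.1.14, then TopHat2 2.0.14 with the TAIR10 build, and Cuffdiff 2.2.1.3 were used, with no options given. The authors deposited group FPKM, p-values and q-values per gene for each pair of groups, per the file headers. The deposited q-value equalled a Benjamini-Hochberg adjustment over all 115069 tests (largest difference 5.3e-07), with a smallest q of 0.000272.

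Folds were recomputed from the FPKM without a pseudocount, because the deposited fold column was damaged. A gene was called at a Cuffdiff q-value of 0.05 or less. Standard errors were the log2 fold divided by the normal quantile for its deposited p-value (4.06 at the smallest p), and reflect the variance that Cuffdiff modelled. P-values measure only the spread between these samples, which may be technical. Of 33557 features 32809 were found in RefSeq TAIR10.1 on the same chromosome, 50.2% with a shared gene end, and promoters were read there. The rule was tested on simulated data.

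The members, the 18 gene lists (192 genes), the rule for named genes and the roles were chosen with earlier results of these data known. The rule named the members with the largest smaller fold, the highest level, the most unlike folds, a place in a list, a transcription factor annotation, a place next to a threshold or to another member, or the largest called genotype difference. Some without a known role were left out, and the other members described were chosen after their values were seen. Alternatives covered the fold (1.5 and 3), the FPKM minimum (5 and none), a pseudocount of 1, a q in both cytokinin contrasts, recentring, protein-coding genes, the call (q of 0.01, adjustment within a comparison, at least 2-fold) and the promoter window and background. Python 3.11.15 was used with pandas 2.3.3, numpy 2.4.6, matplotlib 3.10.9 and SciPy 1.17.1.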

Additional observations from a re-analysis of the deposited data

How the results depend on the processing

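The number of members depended on the thresholds, with 227 at a fold of 1.5, 46 at a fold of 3 and 253 without an FPKM minimum, against 102. It was 69 with an FPKM of 5 or more, 79 with a pseudocount of 1, 96 with a deposited q in both cytokinin contrasts, and 98 after recentring and for protein-coding genes. The share called higher in the groups labelled CPL4RNAi was 35.5% without cytokinin and 32.4% with it when a 2-fold difference was also asked, against 53.8% and 60.8%. The share called lower without cytokinin, 8.60%, became 14.7% at a fold of 1.5, 2.63% at a fold of 3 and 4.30% with at least a 2-fold difference. With cytokinin the 13.7% called lower became 8.70% at a fold of 3 and 1.96% with at least a 2-fold difference. The share of all tested genes called with at least a 2-fold difference was not computed, so those shares of the members are a description. Under the other alternatives these shares stayed within 1.5 times, and the cause of the moves was not tested. For the core motif AGATC the difference from all promoters was 2.88 percentage points in the longer window and -2.49 in the 250 bases before the start. No paired analysis was possible because the table gives no value per replicate, and for the same reason no replicate could be left out. Depth was unknown, and folds on values under 1 FPKM are the least certain.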
